A study of Mus musculus with 9 samples.

Results

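S100 genes encode small calcium-binding proteins, and 8 of them were followed here in mouse prostate cancer cells treated with the HER3 ligand NRG1. The 8 genes, S100a1, S100a4, S100a6, S100a10, S100a11, S100a13, S100a14 and S100a16, were taken by symbol from a table of 15552 protein-coding genes, and all 8 had enough counts to be tested. The set was selected on the counts of these same 9 libraries, after S100a14 had been seen among the larger rises between 0 and 24 h, so the values of the 8 genes are given as a description. Whether a gene passed the threshold applied to all genes is stated as part of that description, beside the share of all genes that did, and is no independent evidence for the choice. The table held 6 more S100 genes, which are described further on.

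RNA from MyC-CaP cells was sequenced at 3 times, with 3 libraries labelled as biological replicates at each. MyC-CaP is a cell line from a prostate tumour of a mouse with a MYC transgene, and all 9 libraries came from this 1 line. All cells were first kept without serum and without calcium for 6 to 12 h, and NRG1 was then used at 15 ng/mL. The groups are the libraries labelled NRG1-treated at 0 h, at 12 h and at 24 h. Later libraries that never received NRG1 are not part of the comparison, so time with NRG1 and time in this medium cannot be told apart.

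Library depth ran from 28467089 to 39239760 counts and overlapped between the 3 times. At these depths a count of 3, the upper limit that a count of 0 allows, corresponds to between 0.0765 and 0.105 CPM, the counts scaled to library size, counting error only. Every pair of replicates differed by more than counting noise, with chi-square values per degree of freedom from 3.75 to 10.1, the largest of them involving replicate 3 at 12 h. The labels call the cells epithelial-like. Of the epithelial markers reported here, Krt19 averaged 110 CPM, Hoxb13 92.2 CPM and Krt8 21.2 CPM, whereas Epcam had 0 to 3 counts, Cdh1 0 to 4 and Krt18 6 to 17 in a library. The immune markers summed to at most 1.11 CPM and the endothelial markers to at most 0.359 CPM, and the fibroblast list, at 15.3 to 18.0 CPM, was almost entirely Pdgfra.

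S100 proteins carry a pair of EF hands, helix-loop-helix folds whose loops can hold a calcium ion, and most of them work as dimers. Calcium opens the fold and exposes a surface that binds partner proteins, among them annexins and the heavy chain of non-muscle myosin. The first loop is of a type found only in this family. The loop nearer the C-terminus is the classical one, with acidic or amide residues at set positions in its first part and a glutamate at its last. In epithelial and tumour cells S100 proteins are known for roles in membrane organisation, motility and secretion.

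The members differ in this classical loop, so the 36 bases that encode its 12 codons are shown for each gene. They were read from GENCODE M21 transcripts on GRCm38 and lie unbroken on chromosome 3, on the minus strand for S100a1 and on the plus strand for the others. Capitals mark a codon for aspartate or asparagine at loop positions 1, 3 and 5 and for glutamate at position 12.
S100a1, chr3:90511284-90511319: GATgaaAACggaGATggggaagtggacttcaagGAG
S100a4, chr3:90605785-90605820: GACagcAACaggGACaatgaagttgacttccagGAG
S100a6, chr3:90614233-90614268: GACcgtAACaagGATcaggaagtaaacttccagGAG
S100a11, chr3:93526037-93526072: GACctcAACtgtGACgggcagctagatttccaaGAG
S100a13, chr3:90524389-90524424: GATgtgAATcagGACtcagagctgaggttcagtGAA
S100a16, chr3:90542410-90542445: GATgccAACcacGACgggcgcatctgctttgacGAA
S100a10, chr3:93564288-93564323: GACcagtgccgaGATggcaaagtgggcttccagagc
S100a14, chr3:90528114-90528149: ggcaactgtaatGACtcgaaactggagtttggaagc

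All 4 examined positions carried the usual residue in S100a1, S100a4, S100a6, S100a11, S100a13 and S100a16. S100a10 kept 2 of the 4 and S100a14 kept 1. S100A10 is known to hold its open form without calcium, and S100A14 is known to bind calcium poorly. The 2 genes with the altered loop were both among those that stood higher at 12 and 24 h than at 0 h, as were S100a16 and S100a11, whose loops are complete.

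The genes were first ordered by level. To compare levels between genes, counts were divided by exonic length and scaled to a common sum per library (TPM). S100a6, which encodes calcyclin, stood far above the others, with a mean of 6825 TPM over the 9 libraries, and ranked 9 of 15541 genes. It took 72.5% to 72.7% of the summed TPM of the 8 genes in the 0 h libraries and 70.6% to 71.1% in the 24 h libraries.

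Below it came S100a11 at 1124 TPM and S100a10 at 895 TPM, which encode the partners of annexin A1 and annexin A2. S100a1, best known from heart and skeletal muscle, where it binds calcium-handling proteins, reached 356 TPM, ahead of S100a16 at 152 TPM and S100a13 at 123 TPM. The libraries of S100a16 and S100a13 overlapped at 0 h, at 124 to 139 TPM and 114 to 131 TPM, and were apart at the later times. S100a14 and S100a4 were the lowest, at 24.6 and 23.4 TPM, and S100a6 was 277-fold above S100a14. At 0 h this last order was inverted, with S100a14 at 15.5 TPM ± 0.971 (SD, n = 3) and S100a4 at 24.9 TPM ± 2.23. At 24 h S100a14 reached 34.4 TPM ± 4.34 and S100a4 22.7 TPM ± 5.51, and at neither time did the libraries of the 2 genes overlap. At 12 h, with S100a14 at 24.0 TPM ± 0.339 and S100a4 at 22.8 TPM ± 1.71, they did overlap. These levels rested in part on the length used. With the longest coding transcript of each gene, an alternative chosen after seeing the data, S100a10 was at 1574 TPM and S100a11 at 1117 TPM, in the opposite order. S100a6 was then at 12678 TPM, 318-fold above S100a14, and took 79.3% to 79.5% of the summed TPM at 0 h and 77.7% to 78.0% at 24 h. S100a14 moved to 39.9 TPM and S100a4 to 27.3 TPM, and their libraries, at 38.3 to 39.4 TPM and at most 28.8 TPM, were then apart at 12 h as well, while S100a4 remained the higher at 0 h. S100a16, at 177 to 199 TPM at 0 h, was then clear of S100a13, at 114 to 130 TPM.

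S100a14 showed the largest change of the 8 genes. Its product is found at the membrane and in the cytoplasm of epithelial cells. Its CPM, scaled for library size by TMM, were 8.59, 7.55 and 7.38 in the 3 libraries at 0 h. They were 12.5, 12.4 and 12.1 at 12 h, and 19.5, 17.7 and 15.2 at 24 h. Every 12 h library lay above every 0 h library and every 24 h library above every 12 h library, and the 24 h libraries were the most spread. The raw counts behind these values were 242 to 287 at 0 h, 370 to 447 at 12 h and 593 to 596 at 24 h. The log2 fold change was 0.66 ± 0.099 (SE, n = 3 per time) at 12 h against 0 h, a 1.58-fold difference. It was 1.16 ± 0.096 at 24 h against 0 h, or 2.23-fold, and 0.50 ± 0.091 at 24 h against 12 h, or 1.41-fold. These bulk values do not tell more RNA per cell from more cells that make it. The 3 log2 fold changes were higher than those of 98.6%, 99.8% and 98.1% of the 11373 genes tested.

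S100a16 encodes a broadly expressed family member that has been found bound to S100A14. It measured 67.4, 58.0 and 63.4 CPM at 0 h, 76.1, 74.6 and 76.7 CPM at 12 h, and 80.4, 78.5 and 78.9 CPM at 24 h. All 12 h libraries were above the 0 h libraries and all 24 h libraries above the 12 h libraries, although the last step was small. The log2 fold changes were 0.27 ± 0.049 at 12 h against 0 h, 0.33 ± 0.048 at 24 h against 0 h and 0.06 ± 0.048 at 24 h against 12 h. S100a14 and S100a16 therefore moved the same way by different amounts, and the ratio of their counts within a library was 0.125 ± 0.00733 (SD, n = 3) at 0 h, 0.162 ± 0.00450 at 12 h and 0.220 ± 0.0256 at 24 h. Against S100a13, the gene just before it on the chromosome, the ratio of S100a14 counts was 0.304 ± 0.00821, 0.487 ± 0.00940 and 0.655 ± 0.0266. These ratios do not depend on how the libraries were scaled.

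S100a10 encodes p11, which joins a dimer of itself to annexin A2 at the inner face of the plasma membrane. It measured 298.8, 299.4 and 298.3 CPM at 0 h, 326.3, 326.8 and 333.2 CPM at 12 h, and 323.9, 323.8 and 347.8 CPM at 24 h. The 0 h libraries lay close together and below all others, and the 24 h spread came from replicate 3. The log2 fold change was 0.14 ± 0.036 at 12 h and 0.15 ± 0.036 at 24 h, both against 0 h, and 0.01 ± 0.036 between 12 and 24 h.

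S100a11, whose product also takes part in annexin binding and membrane repair, measured 155.9, 158.0 and 165.8 CPM at 0 h. It measured 177.7, 170.3 and 165.8 CPM at 12 h and 184.0, 170.2 and 175.8 CPM at 24 h. The lowest 12 h library exceeded the highest 0 h library by a margin lost to rounding, while the 24 h libraries were clear of the 0 h libraries. The log2 fold changes were 0.10 ± 0.041 at 12 h, which did not pass the test, and 0.14 ± 0.041 at 24 h, which did. At 24 h the test was no longer passed when a single library was left out, namely 0 h replicate 1 (0.13), 0 h replicate 2 (0.14), 24 h replicate 1 (0.11) or 24 h replicate 3 (0.15).

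For the other 4 genes the libraries at 12 and 24 h overlapped those at 0 h. S100a6 ranged from 2680 to 2753 CPM at 0 h, from 2691 to 2853 CPM at 12 h and from 2664 to 2796 CPM at 24 h. Its log2 fold change was 0.03 ± 0.034 at 12 h and 0.0035 ± 0.034 at 24 h, so the most abundant member was also the one with the smallest difference at 24 h. S100a1 had log2 fold changes of 0.01 ± 0.047 and -0.05 ± 0.047 at 12 and 24 h, and all its 24 h libraries, at 70.1 to 71.6 CPM, were below its 12 h libraries, at 71.7 to 78.0 CPM.

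S100a13, whose product helps to carry FGF1 and interleukin 1 alpha out of the cell, ranged from 23.7 to 28.2 CPM at 0 h, from 24.7 to 26.2 CPM at 12 h and from 23.9 to 28.5 CPM at 24 h. Its log2 fold changes were -0.03 ± 0.074 at 12 h and 0.04 ± 0.073 at 24 h. S100a4, known as metastasin and for binding non-muscle myosin, was the least abundant, with 89 to 160 counts in a library. It ranged from 3.92 to 4.65 CPM at 0 h, from 3.70 to 4.33 CPM at 12 h and from 2.91 to 4.79 CPM at 24 h. The log2 fold changes of S100a4, -0.11 ± 0.16 and -0.12 ± 0.16, were smaller than their errors. In the annotation 51.7% of its exonic bases are shared with Gm42674 on the same strand, which held 0 to 4 counts, so the counts of S100a4 are uncertain.

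**Figure D1:**
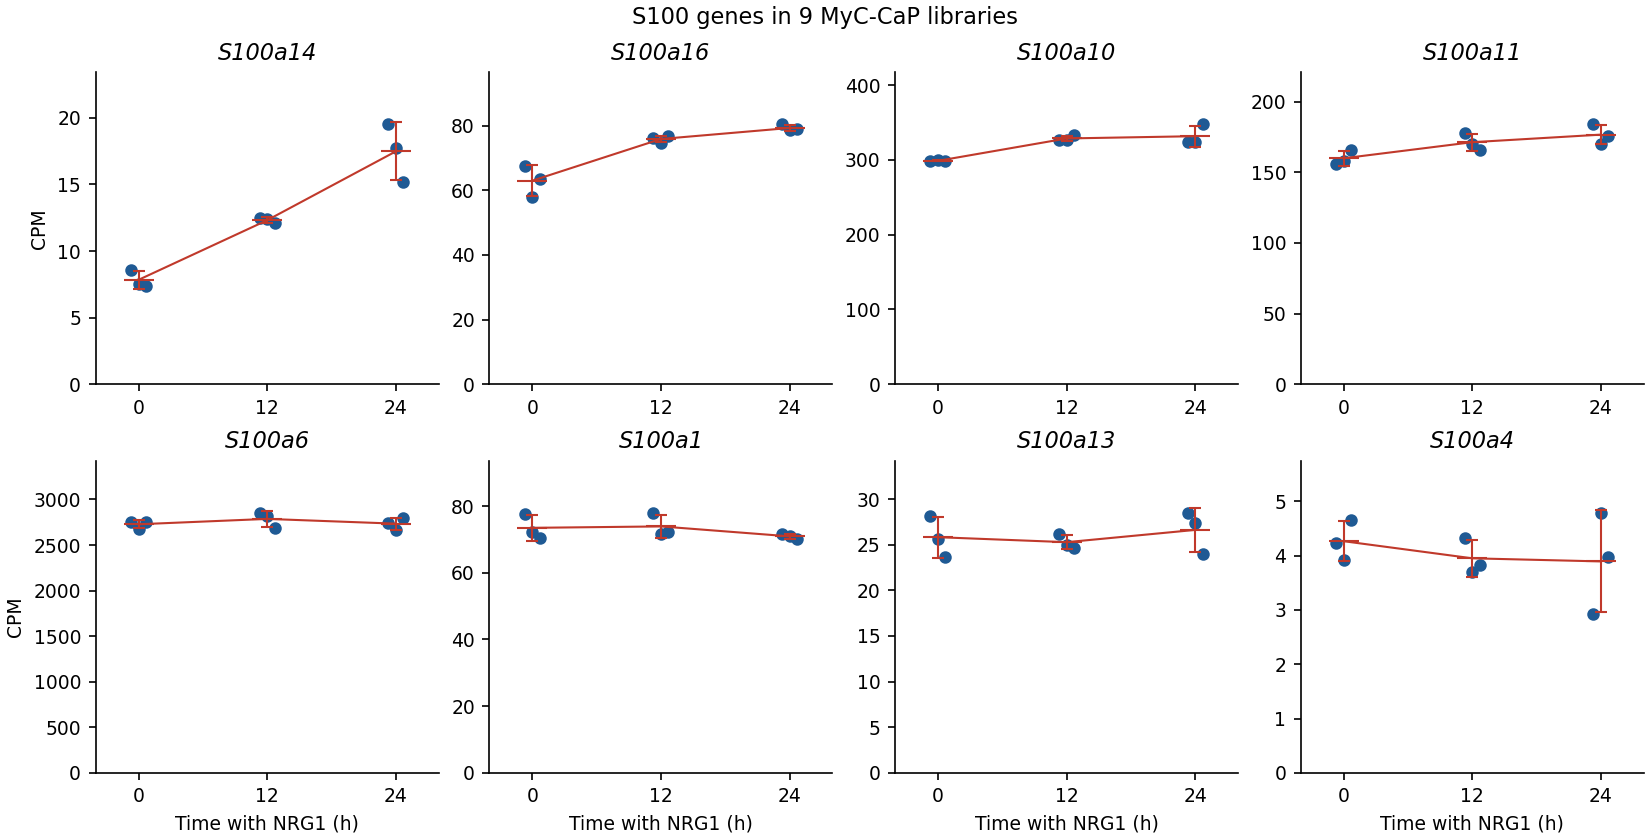
CPM of the 8 S100 genes (vertical axis, from 0, with a scale for each gene) against time with NRG1 in hours. Blue points are single libraries, drawn side by side at each time, and red marks are the mean ± SD of 3 libraries; S100a14 climbs from a mean of 7.84 to 17.5 CPM, S100a16, S100a10 and S100a11 stand slightly higher at 24 h than at 0 h, and the lower row shows the 4 genes whose later libraries overlap those at 0 h.

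The counts over the family are read against all genes. At 12 h against 0 h, 3 of the 8 genes, S100a10, S100a14 and S100a16, had an adjusted p of at most 0.05, and all 3 were higher. Among all 11373 genes tested 25.5% did so, 13.6% with a higher value. At 24 h against 0 h, 4 of the 8 genes, S100a10, S100a11, S100a14 and S100a16, passed and were higher, beside 17.4% of all genes and 9.67% with a higher value. At 24 h against 12 h, only S100a14 of the 8 passed, beside 5.03% of all genes and 1.97% with a higher value.

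With the further requirement of a 1.5-fold change, S100a14 alone was called, and was higher, at 12 h (all genes 2.29%, with 1.34% higher) and at 24 h (all genes 2.27%, with 1.68% higher) against 0 h. None of the 8 was called at 24 h against 12 h (all genes 0.29%, with 0.202% higher). The libraries of 4 of the 8 genes were all higher at 12 h than at 0 h (all genes 19.9%), and those of the same 4 were all higher at 24 h than at 0 h (all genes 17.6%). These were S100a10, S100a11, S100a14 and S100a16. Between 12 and 24 h, S100a14 and S100a16 had all libraries higher (all genes 11.4%) and S100a1 all lower (all genes 13.6%). The median log2 fold change of the 8 genes was 0.065 at 12 h and 0.093 at 24 h against 0 h, and 0.029 at 24 h against 12 h, while the median of all genes lay between -0.0065 and 0.0023. The comparisons at 12 and 24 h use the same 0 h libraries.

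**Figure D2:**
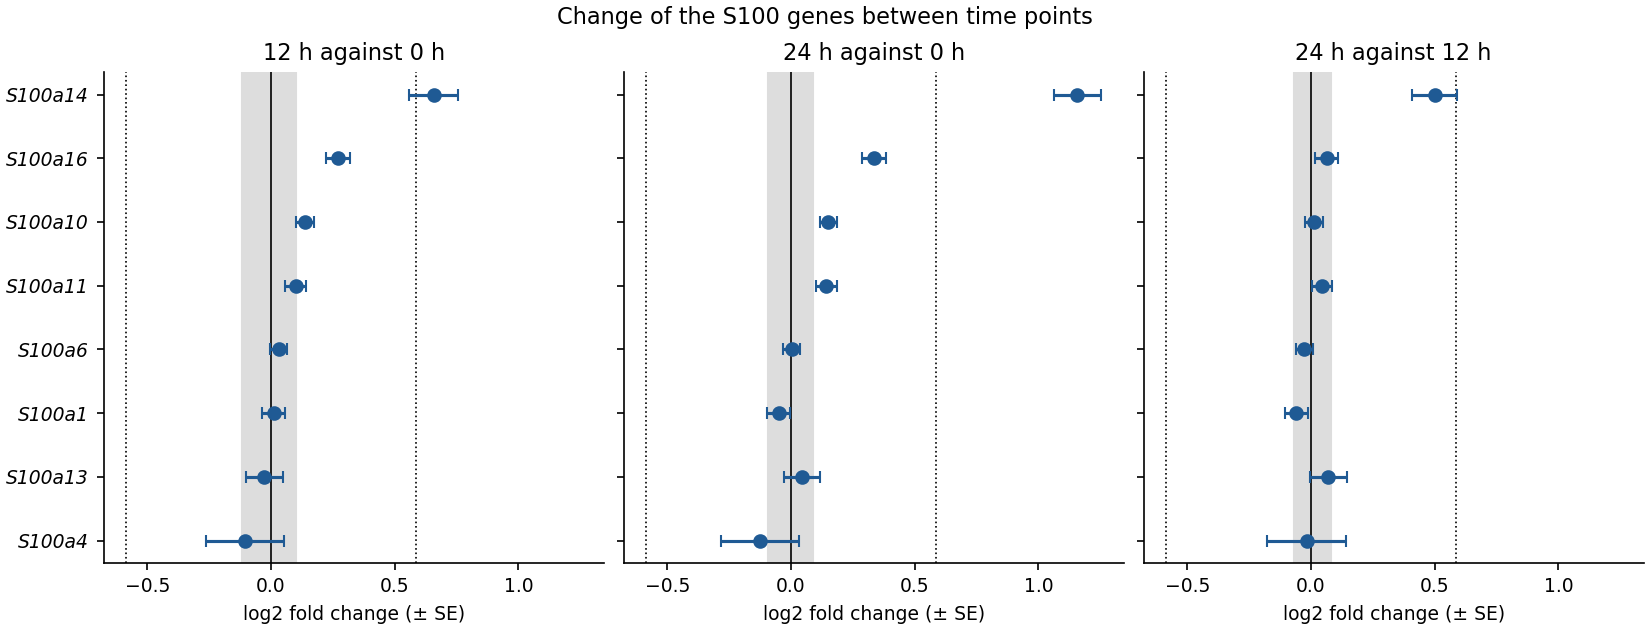
Log2 fold change (horizontal axis) of each S100 gene in the 3 comparisons, one panel each. Points are the edgeR estimates with SE as bars, the grey band spans the middle 50% of all 11373 genes tested, and dotted lines mark a 1.5-fold change. S100a14 stands apart at 0.66, 1.16 and 0.50. S100a16 and S100a10 lie outside the band at 12 and 24 h against 0 h, and S100a11 and S100a4 at 24 h against 0 h. The remaining points lie inside it.

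All 8 genes lie on mouse chromosome 3 (GRCm38), and the change at 24 h was uneven along it. A first block held 6 of them within 113 kb, in the order S100a1, S100a13, S100a14, S100a16, S100a4 and S100a6. S100a11 and S100a10 formed a second block of 44.2 kb that began 2.90 Mb further on. S100a1 (chr3:90511034-90514392, minus strand) and S100a13 (chr3:90514435-90524581, plus strand) start 43 bases apart and read away from each other. S100a14 (chr3:90526856-90528837) and S100a16 (chr3:90537254-90543151) follow on the plus strand. The largest and the next largest log2 fold changes of the 8 genes at 24 h, 1.16 for S100a14 and 0.33 for S100a16, thus belonged to neighbouring members. The next of the 8 genes on either side, S100a13 (0.04) and S100a4 (-0.12), had libraries that overlapped those at 0 h. Between S100a16 and S100a4 lie S100a2, too low to test, and S100a3, which had 0.25 ± 0.17 at 24 h and did not pass (adjusted p = 0.373).

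Within 100 kb of a member the table held 11 other genes, 7 of them tested. At 12 h against 0 h, 1 of the 7 was lower and none higher (14.3%, all genes 25.5% with 11.9% lower). At 24 h against 0 h, 2 were higher (28.6%, all genes 17.4% with 9.67% higher), and at 24 h against 12 h 1 was higher (14.3%, all genes 5.03% with 1.97% higher). At 24 h against 0 h Ilf2, which encodes an RNA-binding protein, rose by a log2 fold change of 0.14 ± 0.041 (adjusted p = 0.0253), and Ints3, a subunit of the Integrator complex, by 0.12 ± 0.036 (adjusted p = 0.0258). Ilf2 shares 4.13% of its exonic bases with Snapin on the opposite strand. Chtop, 1536 bases from S100a1, had a log2 fold change of 0.08 ± 0.035 that did not pass (adjusted p = 0.13). None of the 7 neighbours reached 1.5-fold in any comparison. Without 1 library the call of Ilf2 was lost for replicates 2 (0.13) and 3 (0.15) at 0 h and for each replicate at 24 h (0.13 to 0.15), and that of Ints3 without 0 h replicate 3 (0.11), 24 h replicate 1 (0.11) or 24 h replicate 3 (0.12).

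**Figure D3:**
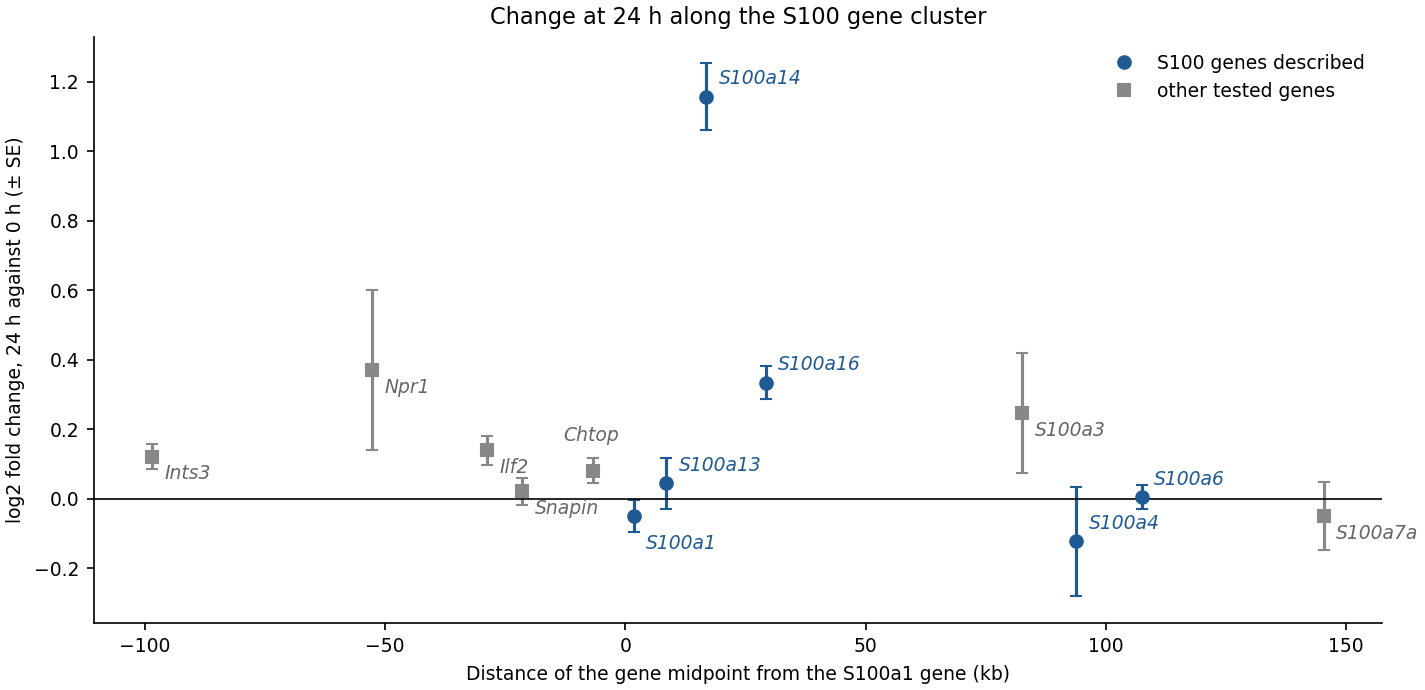
Log2 fold change at 24 h against 0 h (vertical axis, bars are SE) by distance of the gene midpoint from the start of the S100a1 interval in kb (horizontal axis). Blue circles are the 6 described S100 genes of the first block. Grey squares are the 7 other tested genes within 100 kb, among them S100a3 and S100a7a. S100a14 at 1.16 and S100a16 at 0.33 stand next to each other above the other 4 blue circles.

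The table also held S100a2, S100a3, S100a5, S100a7a, S100a8 and S100b. S100a5 and S100a8 had 0 to 3 counts in a library, S100b 0 to 1 and S100a2 1 to 6, too few to test. S100a3 was tested, at 2.51 CPM at 0 h, 2.64 CPM at 12 h and 2.97 CPM at 24 h, and passed in no comparison (adjusted p from 0.373 to 0.776).

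S100a7a, which belongs to the psoriasin group of secreted S100 proteins, followed another course from the 8 genes. Its libraries measured 9.05, 7.63 and 9.09 CPM at 0 h, 6.51, 6.40 and 5.84 CPM at 12 h, and 8.61, 8.34 and 7.90 CPM at 24 h. All 12 h libraries were below those of both other times. The log2 fold change at 12 h against 0 h was -0.45 ± 0.10 (adjusted p = 0.00351), and at 24 h against 12 h it was 0.40 ± 0.10 (adjusted p = 0.0308), with 24 h against 0 h at -0.05 ± 0.098 (adjusted p = 0.784). The rise after 12 h no longer passed when any 1 of the 12 h or 24 h libraries was left out (0.35 to 0.44), whereas the fall at 12 h passed without any 1 library.

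Known partners of S100 proteins and the annexins were examined as a list of 43 genes, of which 36 were in the table and 32 were tested. At 12 h against 0 h, 3 were higher and 5 lower (25%, beside 25.5% of all genes, with 11.9% of all genes lower), at 24 h against 0 h 1 was higher and 5 lower (18.8%, all genes 17.4% with 7.76% lower), and at 24 h against 12 h 1 was higher and 3 lower (12.5%, all genes 5.03% with 3.06% lower). None of the genes that passed reached 1.5-fold. The median log2 fold change of the list was -0.043, 0.0029 and 0.012 in the 3 comparisons.

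Anxa2, whose product forms the complex with S100A10, measured 761, 743 and 688 CPM at 0 h, 985, 926 and 1040 CPM at 12 h, and 783, 796 and 789 CPM at 24 h. Its 12 h libraries lay above all others. The log2 fold change was 0.43 ± 0.044 at 12 h against 0 h (adjusted p = 4.57e-06) and -0.32 ± 0.044 at 24 h against 12 h (adjusted p = 0.000513), and 0.11 ± 0.044 at 24 h against 0 h did not pass (adjusted p = 0.0948). S100a10 itself showed 0.14, 0.01 and 0.15 in these 3 comparisons, so the higher value of S100a10 at 12 h was still present at 24 h while that of Anxa2 had come down. A test of the 2 genes against each other was not made.

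**Figure D4:**
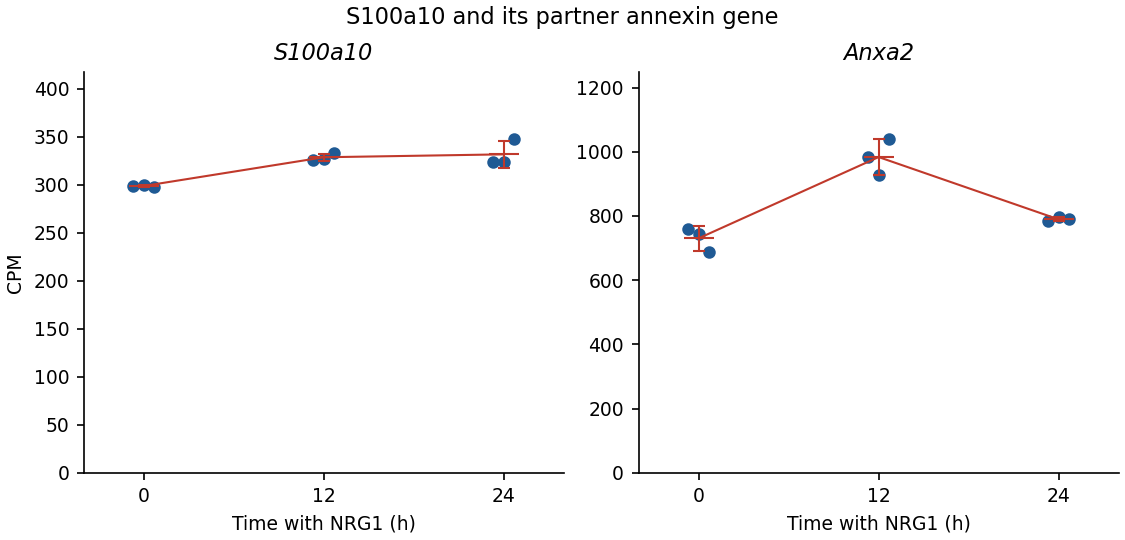
CPM of S100a10 (left) and Anxa2 (right), each on an axis from 0, against time with NRG1 in hours. Blue points are single libraries and red marks the mean ± SD of 3 libraries; the mean of S100a10 is 298.8, 328.8 and 331.8 CPM in order of time, and that of Anxa2 is 730.5, 984 and 789 CPM.

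Anxa1, the partner of S100A11, measured 2169 CPM ± 42.3 (SD, n = 3) at 0 h, 2171 CPM ± 46.4 at 12 h and 2161 CPM ± 16.7 at 24 h (adjusted p of 0.984 at 12 h and 0.937 at 24 h). Cacybp, which encodes the calcyclin-binding protein that S100A6 binds, measured 66.4, 69.4 and 69.2 CPM on average (adjusted p of 0.451 at 12 h and 0.522 at 24 h). Both were singled out as partners after their values were seen. The other annexins that passed were Anxa4, Anxa5 and Anxa6, and each was lower at the later time. Anxa5 had a log2 fold change of -0.14 ± 0.033 at 24 h against 0 h (adjusted p = 0.00805) and -0.16 ± 0.033 against 12 h (adjusted p = 0.0108). Anxa4 had -0.12 ± 0.038 at 24 h against 0 h (adjusted p = 0.0358) and -0.20 ± 0.038 against 12 h (adjusted p = 0.00605). Anxa6 was already lower at 12 h against 0 h, by -0.16 ± 0.042 (adjusted p = 0.00905), and stood at -0.18 ± 0.042 at 24 h against 0 h (adjusted p = 0.00606), with -0.02 ± 0.042 between 12 and 24 h (adjusted p = 0.845).

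The myosin heavy chain gene Myh9, whose product is bound by S100A4, was lower at 12 h by a log2 fold change of -0.25 ± 0.050 (adjusted p = 0.00152), and Myh10, another non-muscle myosin heavy chain, by -0.21 ± 0.042 (adjusted p = 0.00154). At 24 h against 0 h neither myosin gene passed, with -0.14 ± 0.050 for Myh9 (adjusted p = 0.0579) and -0.12 ± 0.041 for Myh10 (adjusted p = 0.053). Basp1, a membrane protein of the cell cortex, had the largest change among those that passed, 0.47 ± 0.043 at 12 h (adjusted p = 1.64e-06) and 0.33 ± 0.043 at 24 h (adjusted p = 3.82e-05), both against 0 h. Plat, tissue plasminogen activator, which acts on the plasminogen that S100A10 holds at the cell surface, was lower at 24 h (-0.17 ± 0.052, adjusted p = 0.0294). Dlg5, a scaffold protein of cell junctions, was lower at 12 h against 0 h (-0.16 ± 0.042, adjusted p = 0.00865). It was higher at 24 h than at 12 h (0.17 ± 0.042, adjusted p = 0.0229), and 24 h against 0 h stood at 0.01 ± 0.041 (adjusted p = 0.892). Leaving out 1 library ended some of these calls: Anxa5 at 24 h without replicate 1 at 24 h (-0.13 against 0 h, -0.14 against 12 h) or, against 12 h, replicate 3 (-0.15), and Anxa6 at 24 h without replicate 3 at 24 h (-0.16). The call of Plat was lost without replicates 1 (-0.14) or 2 (-0.17) at 0 h or 2 (-0.14) or 3 (-0.17) at 24 h. That of Dlg5 at 24 h against 12 h was lost without 12 h replicate 1 (0.18), 24 h replicate 2 (0.15) or 24 h replicate 3 (0.18). At 24 h against 0 h, 6 genes of the list passed with all libraries and 3 without any 1 of the 24 h libraries. The call of Anxa4 against 0 h may therefore also rest on single libraries.

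Other EF-hand and calcium signalling genes formed a list of 55, of which 50 were in the table and 39 were tested. At 12 h against 0 h, 6 were higher and 4 lower (25.6%, all genes 25.5%), at 24 h against 0 h 4 were higher and 3 lower (17.9%, all genes 17.4%), and at 24 h against 12 h 1 was higher and 2 lower (7.69%, all genes 5.03%). The first 2 shares were thus near those of all genes, and the genes named below are single genes and no property of the list. None of the genes that passed reached 1.5-fold, and the list's median log2 fold changes were 0.026, 0.020 and 0.0062. Calm2, a calmodulin gene, was higher at 24 h against 0 h by 0.26 ± 0.035 (adjusted p = 5.81e-05).

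Ppp3cc, a catalytic subunit of the calmodulin-dependent phosphatase calcineurin, rose by 0.34 ± 0.093 at 12 h (adjusted p = 0.0138) and 0.40 ± 0.092 at 24 h (adjusted p = 0.00576) against 0 h. Of the kinases that activate calmodulin-dependent kinases, at 12 h Camkk1 was higher (0.25 ± 0.085, adjusted p = 0.0372) and Camkk2 lower (-0.26 ± 0.078, adjusted p = 0.0209). Plcg1, a phospholipase C whose product releases stored calcium, was also lower at 12 h (-0.23 ± 0.048, adjusted p = 0.00203). Nucb2, a calcium-binding protein of the secretory pathway, was lower at 24 h against 0 h (-0.24 ± 0.055, adjusted p = 0.00584) and against 12 h (-0.24 ± 0.055, adjusted p = 0.0203). Cetn2, an EF-hand protein of centrioles, was lower (-0.24 ± 0.056, adjusted p = 0.0192) and Camk2g, a subunit of a calmodulin-dependent kinase, higher (0.24 ± 0.060, adjusted p = 0.0312) at 24 h than at 12 h. At 12 h against 0 h Camk2g was lower (-0.18 ± 0.060, adjusted p = 0.0385), and Cetn2 did not pass (0.14 ± 0.056, adjusted p = 0.0692). Neither passed at 24 h against 0 h, with -0.10 ± 0.056 for Cetn2 (adjusted p = 0.262) and 0.06 ± 0.059 for Camk2g (adjusted p = 0.557). With 1 library left out, Ppp3cc was lost at 12 h without replicate 2 at 12 h (0.26), Camkk1 without replicate 2 or 3 at 0 h, any 12 h replicate or replicate 1 at 24 h (0.21 to 0.28), and Camkk2 without 0 h replicate 2, 0 h replicate 3, 12 h replicate 1 or 12 h replicate 3 (-0.23 to -0.22). At 12 h against 0 h, 10 genes of the list passed with all libraries and 7 without replicate 1 at 0 h. The call of Camk2g at 12 h may therefore also rest on single libraries. At 24 h against 12 h, Nucb2 and Camk2g were each lost without replicate 1 at 12 h or any 24 h replicate (-0.25 to -0.19 and 0.20 to 0.27), and Cetn2 without replicate 1 (-0.23) or 3 (-0.22) at 24 h.

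To find the profiles most like that of S100a14, each gene's log2 CPM over the 9 libraries was centred and scaled to unit SD, and the Euclidean distance to S100a14 was taken. On this scale 5.66 is the largest possible distance and 4.09 was the median over the 8433 genes with a mean of at least 10 CPM. The 5 nearest genes were Tigit (0.436), Tfb1m (0.557), Dusp7 (0.637), Arf6 (0.693) and Ubald2 (0.79). Tigit, known as an inhibitory receptor of lymphocytes, averaged 7.95 CPM ± 0.168 (SD, n = 3) at 0 h, 12.1 CPM ± 0.352 at 12 h and 17.7 CPM ± 1.45 at 24 h, while the summed immune markers stayed at or below 1.11 CPM. Dusp7, a phosphatase of ERK, averaged 94.3, 117 and 135 CPM, and the small GTPase gene Arf6 152.6, 166 and 178 CPM. Tfb1m, which encodes a methyltransferase of mitochondrial ribosomal RNA, averaged 9.25, 10.4 and 11.3 CPM. These genes lie on chromosomes 16, 17, 9, 12 and 11 and not on chromosome 3. Tigit was nearest in all 13 settings tried, whereas between 2 and 5 of the 5 genes were shared with the list above, the lowest number without replicate 2 at 12 h.

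Among the S100 genes, S100a16 was nearest to S100a14, with a distance of 1.14 and rank 62 of the 8433, and this was the closest pair of the 8. S100a10 and S100a16 were 1.54 apart and S100a11 and S100a14 1.78. The farthest pair was S100a4 and S100a11, at 4.79. The distances give the shape of a profile and not its size: S100a16 resembled S100a14 in shape with a log2 fold change at 24 h of 0.33 where S100a14 had 1.16.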

How the data were processed

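Per the labels and the study's methods, the authors trimmed reads with Cutadapt, checked them with FastQC, aligned them to GRCm38.p6 with STAR using GENCODE vM24 and counted them per gene with featureCounts. The deposited values are raw counts per gene, without normalization. Strand use and the handling of multiply mapped reads are not given in the sources used here, so antisense overlaps and paralogs are uncertain. Counts were filtered with filterByExpr (11373 of 15552 genes), scaled by TMM and fitted over all 9 libraries with glmQLFit and glmQLFTest in edgeR 4.0.16 (R 4.3.3), with Benjamini-Hochberg adjustment over all genes tested. A gene passed at an adjusted p of at most 0.05 and was called when it also changed at least 1.5-fold. SE are of the log2 fold change. TPM used exonic lengths from GENCODE M21 for 15541 genes, and log2 CPM for profile distances a prior count of 2. The procedure was tested on simulated data. From each list, the 4 largest passed changes in each comparison were named, and some genes so chosen, and the summed epithelial markers, are not reported here. The members and lists were chosen with earlier results of these data known. The study's methods describe plating in triplicate, and nothing shows that replicates came from separate experiments. The p-values therefore set each change against the spread between these libraries only. The self-made alternatives were other scalings, DESeq2 1.42.0, no filter, a replicate block, only the compared libraries, and leaving out each library.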

Additional observations from a re-analysis of the deposited data

Results flagged for a closer look

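For 8 genes outside the 8 S100 genes described first, the change at 12 h and the change at 24 h, both against 0 h, differed by the edgeR test of 24 h against 12 h. The log2 differences were -0.32 for Anxa2, -0.16 for Anxa5, -0.20 for Anxa4, 0.17 for Dlg5, -0.24 for Nucb2, -0.24 for Cetn2, 0.24 for Camk2g and 0.40 for S100a7a. Those of Anxa2 and Anxa4 passed in every alternative, and those of Anxa5, Dlg5, Nucb2, Cetn2, Camk2g and S100a7a were each lost without at least 2 of the single libraries of 12 or 24 h. No explanation was tested.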

How the results depend on the processing

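Over 16 settings S100a14 kept a log2 fold change of 0.62 to 0.72 at 12 h and 1.07 to 1.26 at 24 h against 0 h, called in all 16, and 0.42 to 0.60 at 24 h against 12 h, called only without replicate 3 at 24 h (0.60). S100a16 passed in all 16 settings at 12 h (0.22 to 0.32) and 24 h (0.28 to 0.38) against 0 h, and S100a10 in 16 at 12 h and in 15 at 24 h, lost without replicate 3 at 24 h (0.12). S100a11 passed at 12 h only without replicate 3 at 12 h (0.13). Same-numbered libraries deviated together with r from -0.0744 to 0.1313, so the numbers were not taken to pair them; with the replicate block 3, 4 and 1 of the S100 genes passed at 12 h and 24 h against 0 h and at 24 h against 12 h, as without it. Without a filter on low counts, 12 partner and annexin genes passed at 24 h against 0 h instead of 6 and 7 at 24 h against 12 h instead of 4, and 5 EF-hand and calcium genes instead of 3 at 24 h against 12 h. DESeq2 passed 2 neighbours instead of 1 at 12 h. With 1 library left out, the S100 genes passed in numbers of 3 to 4 at 12 h, 2 to 4 at 24 h (2 without replicate 3 at 24 h) and 1 at 24 h against 12 h. In the same order, partners and annexins ran from 8 to 11, 3 to 10 (3 without any 24 h library, 10 without replicate 3 at 12 h) and 2 to 6 (2 without replicate 3 at 24 h). EF-hand and calcium genes ran from 6 to 9 (6 without replicates 2 or 3 at 0 h or 2 at 12 h), 4 to 9 (4 without replicate 1 at 0 h or 1 or 2 at 24 h) and 0 to 3 (0 without replicates 1 or 3 at 24 h, 1 without replicate 1 at 12 h). Neighbours ran from 1 to 2 (2 without replicate 3 at 0 h), 0 to 2 (0 without replicate 3 at 0 h or 1 or 3 at 24 h, 1 without replicate 2 at 0 h or at 24 h) and 0 to 1 (0 without any 12 or 24 h library). No fold change that passed changed sign. Of the S100 fold changes that did not pass, 7, of 5 genes, had another sign in 13 values: at 12 h S100a1 (down to -0.03) and S100a13 (up to 0.04), at 24 h S100a4 (0.04 without replicate 1 at 24 h), S100a6 and S100a13 (both down to -0.01), and at 24 h against 12 h S100a4 (up to 0.14) and S100a10 (-0.02). The cause of these shifts was not tested. With 89 to 160 counts in a library, S100a4 had the widest errors of the 8 genes.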
